A study of Mus musculus with 12 samples.

Results

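The abundant carrier proteins that hepatocytes secrete into plasma were followed in mouse liver through their mRNA. All probe sets annotated to Alb, Ttr, Ahsg, Gc, Rbp4, Fetub, Hrg, Kng1, Azgp1 or Afm were taken, by symbol alone. Of these 10 genes, 9 had a probe set under their symbol, among 12393 gene symbols on the array, and together they held 13 of the 22626 probe sets tested. Gc, the vitamin D-binding protein, had none under that symbol and was not analysed here. Where a gene had several probe sets, the one with the highest mean log2 signal stands for it.

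The livers came from male mice 6 weeks of age with a human alpha1-antitrypsin transgene whose expression was inducible and specific to hepatocytes. The M groups carried the wild-type human form and the Z groups the mutant ATZ form, so M and Z are different transgenic mice. M off (M1 in the labels) and Z off (Z1) had 40 µg/mL doxycycline in their drinking water from conception until death, which kept the transgene silent, whereas M on (M4) and Z on (Z4) had no doxycycline and expressed it. There were 12 arrays, 3 per group, called biological replicates by the labels and numbered 1 to 3 in each group, and no non-transgenic liver was among them. Expression of the transgene cannot be told apart from the absence of doxycycline, nor the mutant form from the mice that carried it, and no probe set was named for the human transgene, so its state could not be checked on the arrays.

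Plasma carriers are made in the hepatocyte endoplasmic reticulum, exported and used to move or hold poorly soluble or reactive cargo in blood. Albumin carries fatty acids, bilirubin and many drugs, transthyretin carries thyroxine and travels with the retinol carrier RBP4, and the fetuins bind mineral. In inflammation several of them, albumin, transthyretin and fetuin-A among them, are known as negative acute phase proteins, whose plasma levels fall while serum amyloid A and similar proteins rise.

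The values are linear array signals, brighter with more labelled RNA, and a difference between groups is given as a log2 difference of mean log2 signals. Signals of different probe sets were not compared as transcript levels, since probes differ in their response. Of the 13 carrier probe sets, 8 were among the 100 brightest on the array, and their signals over all arrays ran from 1214.4 to 30515.7. Summed hepatocyte markers (10 of 11 with a probe set) lay between 56220.2 and 76015.9 on every array, while cholangiocyte markers summed to at most 183.7 and lymphocyte markers to at most 111.8 (5 of 6 with a probe set each). Kupffer cell markers (10 of 10) summed to 1824.9 to 2520.2, endothelial markers (8 of 8) to 731.6 to 1123 and muscle markers (7 of 7) to 61.4 to 563.1, and no marker of these lists was under 16 on every array. In whole liver, fewer hepatocytes and less carrier mRNA per hepatocyte cannot be told apart.

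Alb encodes albumin and Afm encodes afamin, a vitamin E-binding relative. They lie in the same orientation on chromosome 5, with starts 58.1 kb apart (GRCm38.p6). Their RefSeq promoter windows, the 250 bases before each start, are shown because the albumin promoter is a classical target of the liver factor HNF1. Capitals mark the HNF1 half-site GTTAAT and the motif TGTTTGC of HNF3, another liver factor, on either strand.
Alb chr5:90460620-90460869 (+): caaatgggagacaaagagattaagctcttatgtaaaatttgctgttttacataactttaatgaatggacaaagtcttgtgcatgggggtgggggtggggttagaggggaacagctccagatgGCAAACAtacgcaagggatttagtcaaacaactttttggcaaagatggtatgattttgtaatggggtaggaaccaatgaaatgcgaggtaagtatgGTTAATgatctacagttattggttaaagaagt
Afm chr5:90518699-90518948 (+): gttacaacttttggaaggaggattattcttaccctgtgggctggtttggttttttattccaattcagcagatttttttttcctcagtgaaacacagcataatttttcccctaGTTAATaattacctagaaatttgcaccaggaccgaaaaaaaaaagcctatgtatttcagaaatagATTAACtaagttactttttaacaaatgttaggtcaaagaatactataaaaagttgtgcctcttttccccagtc
Of 32851 mouse promoter windows of this length, 6.43% held GTTAAT and 4.30% held TGTTTGC on either strand. The Alb window held 1 match of each, and the Afm window held 2 matches of GTTAAT and none of TGTTTGC. These matches describe letters in the windows and are no measurement of binding.

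For Alb (1425260_at), no difference between groups was larger than the spread between arrays of a group. Its signals were 26306, 21359.3 and 16710.8 in M off and 28641.5, 18099.4 and 16217.4 in M on. They were 22924.9, 19139.4 and 17340.6 in Z off and 23382.3, 21027.2 and 17456.7 in Z on, each series given from the array numbered 1 to that numbered 3. The arrays numbered 1 were the brightest and those numbered 3 the dimmest in every group, and the 4 groups overlapped throughout. Group means were 21459 ± 4798 in M off, 20986 ± 6696 in M on, 19802 ± 2850 in Z off and 20622 ± 2984 in Z on (SD, n = 3). Z on against Z off differed by 0.06 on the log2 scale (95% interval -0.54 to 0.65, limma adjusted p = 0.980). M on against M off differed by -0.05 (-0.65 to 0.54), a value that moved to -0.30 without the M on array numbered 1 and to 0.11 without the M on array numbered 3.

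Afm (1427440_a_at) read 2922.4, 2785 and 2911.8 in M off and 2461.2, 2335.4 and 3040.1 in M on. It read 2391.3, 2053 and 2278.3 in Z off and 2637.2, 2448.6 and 1592.6 in Z on. All Z off arrays lay below all M off arrays, while the Z on arrays, of which that numbered 3 was the dimmest of the 12, overlapped with Z off and M on and lay below M off. The Z off minus M off log2 difference was -0.36 (SE 0.22, limma adjusted p = 0.741), and the second Afm probe set, 1427561_a_at, overlapped between these groups at 1488.3 to 1750.5 in Z off and 1642.3 to 1971.6 in M off.

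Ttr and Rbp4 encode the partners of retinol transport in plasma, where the complex with transthyretin keeps the small retinol-binding protein from being filtered by the kidney. Ttr (1451580_a_at) read 22052.8, 17098.2 and 14858.7 in M off and 23161.5, 15354.2 and 14683.7 in M on. It read 19013.8, 17665.6 and 14998.6 in Z off and 19012.4, 15759.1 and 15294.3 in Z on, again with the arrays numbered 1 highest and those numbered 3 lowest in each group. The groups overlapped, and Z on minus Z off was -0.05 on the log2 scale (95% interval -0.57 to 0.48, limma adjusted p = 0.983). Of the other Ttr probe sets, 1454608_x_at ran from 13682.7 to 30515.7, with its highest value on the M on array numbered 1, and 1455913_x_at ran from 8735.1 to 12820. The _x_ in both names marks probe sets whose probes can also bind other transcripts. All Z off signals of 1455913_x_at (8735.1 to 9638.7) lay below all M off signals (9742.9 to 10494), which the other Ttr probe sets did not show.

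Rbp4 (1426225_at) read 10561.5, 9604.2 and 9114.3 in M off and 9011.7, 9076 and 8474.3 in M on, so that all M on arrays lay just below all M off arrays. It read 10900.5, 9883.5 and 8485.6 in Z off and 10152.9, 9775.2 and 8368.6 in Z on, where the groups overlapped. The M on minus M off log2 difference was -0.14 (95% interval -0.51 to 0.23, limma adjusted p = 1.000), and the Z on minus Z off difference was -0.05. Summed stellate markers lay apart in the same direction, at 1287.1 to 1872.9 in M on and 2054.9 to 2290.2 in M off. They also lay apart in Z, at 1214.3 to 1537.3 in Z on and 1913.4 to 2202.2 in Z off, where Rbp4 overlapped. Of the single stellate markers, Dcn and Col3a1 had the highest means in M off, at 684.5 and 651.2. In M on against M off, 7 of 8 stellate markers had a lower mean. The other, Lrat, was dim, at 11.5 to 14.7 in M on and 2.2 to 21.3 in M off. The part of stellate cells in the Rbp4 values was not tested.

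**Figure D1:**
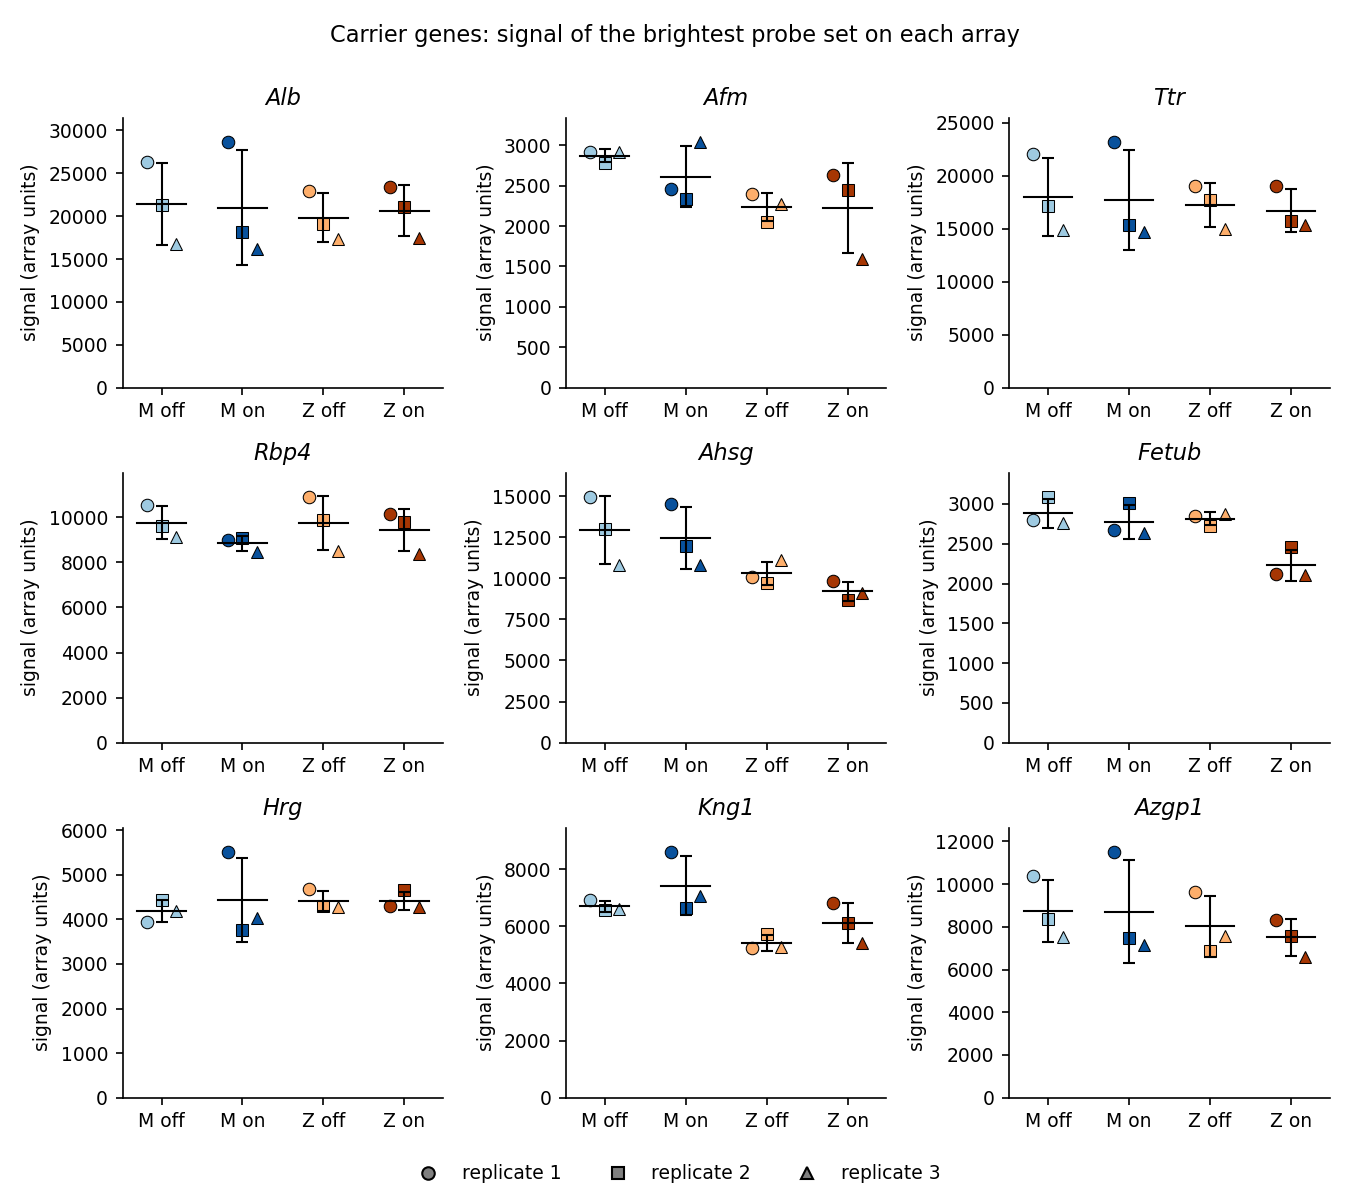
Signal of each carrier gene's brightest probe set on the 12 arrays (vertical axes from 0, in array units), with marker shape giving the replicate number, the horizontal line the group mean and the bar 1 SD (n = 3). Fetub in Z on, at 2111.6 to 2456.1, lies below the other 9 arrays, while the Alb groups overlap and differ less than the arrays numbered 1 and 3 within them.

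Ahsg, Fetub, Hrg and Kng1 encode secreted proteins of the cystatin family and lie within 190 kb on chromosome 16. Fetuin-A, from Ahsg, and fetuin-B, from Fetub, bind calcium phosphate or inhibit proteases, histidine-rich glycoprotein (Hrg) binds heparin, plasminogen and metal ions, and kininogen (Kng1) is the precursor of bradykinin. The Ahsg end and the Fetub start are 18.9 kb apart. The promoter windows of these neighbours are shown because these are the carriers whose Z on arrays all lay below all M on arrays, with capitals as above.
Ahsg chr16:22891765-22892014 (+): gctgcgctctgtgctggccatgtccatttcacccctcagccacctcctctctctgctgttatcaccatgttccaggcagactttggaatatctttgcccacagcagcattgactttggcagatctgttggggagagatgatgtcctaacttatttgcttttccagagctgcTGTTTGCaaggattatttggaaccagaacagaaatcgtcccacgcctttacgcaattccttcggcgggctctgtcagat
Fetub chr16:22918132-22918381 (+): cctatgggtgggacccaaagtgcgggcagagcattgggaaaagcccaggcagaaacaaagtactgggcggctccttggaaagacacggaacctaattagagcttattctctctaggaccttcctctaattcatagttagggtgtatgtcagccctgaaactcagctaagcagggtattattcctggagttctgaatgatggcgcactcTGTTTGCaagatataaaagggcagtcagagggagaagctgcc
Each held 1 match of TGTTTGC and none of GTTAAT. Among the 8 carriers with a window (Gc included), GTTAAT was found in Alb, Gc and Afm, and TGTTTGC in Alb, Ahsg and Fetub. The C/EBP motif TTGCNNAA was in 4 of 8 (9.56% of all windows), namely Alb, Ahsg, Rbp4 and Hrg, and CCAAT was in 7 of 8 (33.8% of all windows). TATAAA was in Rbp4, Fetub and Afm (12.4% of all windows), and the full HNF1 palindrome was in none (0.00913% of all windows). Carriers were counted as genes, with a match in any window of the gene, whereas the shares are of single windows. In Rbp4, the CCAAT match lay in another window than the C/EBP and TATAAA matches.

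Fetub (1449555_a_at) was the carrier with the lowest adjusted p in Z on against Z off, although it did not pass the threshold. It read 2801.5, 3087.2 and 2758.1 in M off, 2671.2, 3016.5 and 2636.3 in M on, and 2851.1, 2728.2 and 2869.8 in Z off. In Z on it read 2123.9, 2456.1 and 2111.6, so that all Z on arrays lay below the other 9, and no other carrier had this pattern. Over the whole array, 142 probe sets (0.628%) had all Z on arrays below all others. Means were 2230 ± 195 in Z on and 2816 ± 77 in Z off (SD, n = 3), and the log2 difference was -0.34 (SE 0.15, 95% interval -0.68 to -0.0021). Its unadjusted p in limma was 0.0489, as 6.29% of all probe sets had a p under 0.05, and its adjusted p was 0.792. Z on minus M on was -0.32 (limma adjusted p = 0.763), M on minus M off was -0.06, and the difference between the Z and the M response was -0.28 (SE 0.21, limma adjusted p = 0.933).

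Ahsg (1455093_a_at) had lower means in the Z groups than in the M groups, without passing the test. It read 14944.5, 13016.3 and 10803.5 in M off and 14515.7, 11952.2 and 10828.4 in M on. It read 10084, 9721.5 and 11090.2 in Z off and 9836.2, 8674.9 and 9127.5 in Z on. All Z on arrays lay below all M on arrays, whereas Z off overlapped with M off and, by 1 array, with Z on. Z on minus M on was -0.42 on the log2 scale (SE 0.18, 95% interval -0.84 to -0.0098, limma adjusted p = 0.726), Z off minus M off was -0.32 (limma adjusted p = 0.733) and Z on minus Z off was -0.16 (limma adjusted p = 0.921).

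Kng1 (1416676_at) read 6914.7, 6569.9 and 6585.6 in M off and 8594.4, 6624.2 and 7040.9 in M on. It read 5237, 5742.2 and 5259.8 in Z off and 6815, 6129.3 and 5409.3 in Z on. All Z off arrays were below all M off arrays, with a log2 difference of -0.31 (SE 0.17, limma adjusted p = 0.718), and Z on overlapped with Z off at a difference of 0.17 (limma adjusted p = 0.907). The second probe set, 1426045_at, ran from 2087.3 to 2952.4 and overlapped between Z off and M off. Mouse has a neighbouring, closely similar kininogen gene, Kng2, whose transcripts the Kng1 probes may also detect. Hrg (1449242_s_at) read between 3755.6 and 5509.7, both extremes being M on arrays, and its Z on minus Z off difference was 0.00089 on the log2 scale (95% interval -0.40 to 0.40, limma adjusted p = 0.999).

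Azgp1 encodes zinc-alpha2-glycoprotein, an MHC class I-like plasma protein known for its role in lipid mobilisation. It (1417776_at) read 10357.7, 8376.7 and 7508.4 in M off and 11499.8, 7481.6 and 7165.6 in M on. It read 9628.7, 6876.2 and 7558.3 in Z off and 8338.6, 7577.1 and 6605.2 in Z on. The array numbered 1 was again the brightest of each group, and the groups overlapped, with a Z on minus Z off log2 difference of -0.09 (95% interval -0.62 to 0.45, limma adjusted p = 0.973).

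Over the 9 genes, none passed an adjusted p of 0.05 in limma in any of the 5 comparisons. In Z on against Z off, 0 of 9 were called (0.0133% of all probe sets), 3 had a higher and 6 a lower mean, and the median difference was -0.05 on the log2 scale, beside -0.03 over all probe sets. At an unadjusted p under 0.05 in limma, 1 of 9, Fetub, passed (6.29% of all probe sets). Of the 9, 1 gene, Fetub, lay apart downward without overlap (6.61% of all probe sets), and 0 lay apart upward (5.22% of all probe sets). The widest of the 9 intervals in this comparison, that of Alb, reached from 0.690-fold to 1.57-fold.

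In M on against M off, 0 of 9 were called (0.0% of all probe sets), 2 were higher and 7 lower, and the median was -0.05 beside -0.01 over all probe sets. No carrier had an unadjusted p under 0.05 here (5.18% of all probe sets did), and 1 of 9, Rbp4, lay apart downward (5.32% of all probe sets), with 0 of 9 apart upward (5.23% of all probe sets). For the difference between the Z and the M response, 0 of 9 were called in limma (0.0% of all probe sets), none had an unadjusted p under 0.05 (5.18% of all probe sets did), and the values ran from -0.28 to 0.11 on the log2 scale. The Z and M responses therefore were not shown to differ for any carrier.

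Between the lines, most carriers had a lower mean in Z, by differences that did not pass the test. In Z on against M on, 0 of 9 were called in limma (0.00884% of all probe sets), 3 were higher and 6 lower, the median was -0.19 beside 0.00 over all probe sets, and 2 of 9, Ahsg and Fetub, lay apart downward (6.02% of all probe sets), with 0 apart upward (6.07% of all probe sets). At an unadjusted p under 0.05 in limma, 1 of 9 passed there (6.85% of all probe sets), which was Ahsg. In Z off against M off, 0 of 9 were called (0.0707% of all probe sets), 1 was higher and 8 lower, the median was -0.10 beside 0.03, and 2 of 9, Kng1 and Afm, lay apart downward (6.76% of all probe sets), with 0 apart upward (8.36% of all probe sets). None of the 9 had an unadjusted p under 0.05 there (7.73% of all probe sets). These comparisons have no arrays in common with each other, and no carrier lay apart in both. Among the other secreted plasma proteins described below, 28 of 38 had a lower mean in Z on than in M on. In Z off against M off, 23 of 38 had a lower mean. Over all genes, 48.9% and 51.9% had a higher mean in Z in these comparisons. After the quantile normalization described below, Ttr turned to 0.02 in Z on minus M on, and Ttr and Rbp4 each to 0.03 in Z off minus M off. Erythroid markers (3 of 6 with a probe set) summed to 1153.2 to 1499.9 in Z off and to at most 335 in each other group. The sum was nearly all Alas2, the erythroid enzyme of heme synthesis, at 1118.8 to 1456.1 in Z off and 254.2 to 306.6 in M off. Hba-a1 and Slc4a1, for a globin and a red cell membrane protein, read at most 35.7 and 32.1 in Z off, and Slc4a1 overlapped with its 23.1 to 31.1 in M off. The part of Alas2 in the Z off values of the carriers was not tested.

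**Figure D2:**
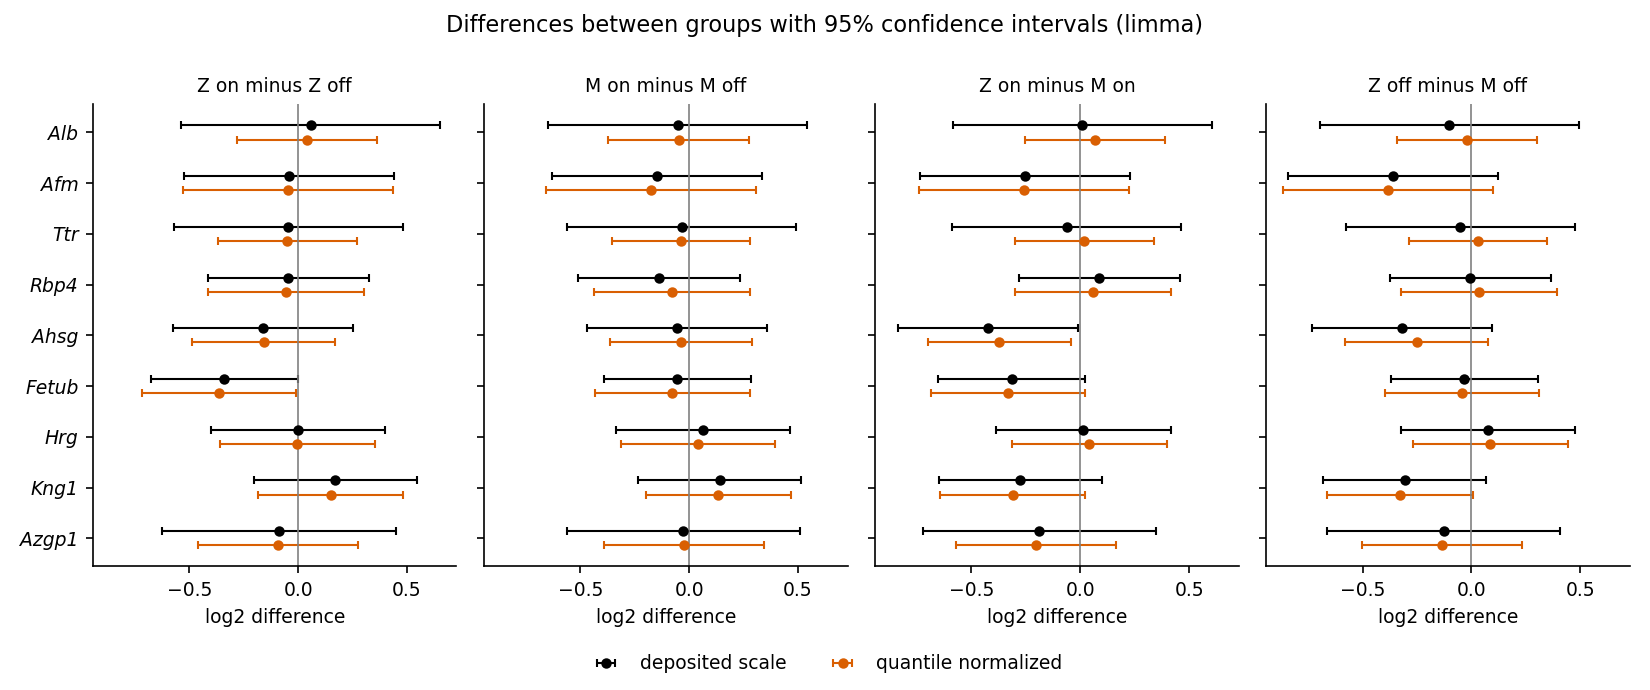
Log2 differences between groups for each carrier's brightest probe set in 4 comparisons, with 95% intervals from limma, on the deposited scale (black) and after quantile normalization (orange). In Z on minus Z off, the Fetub interval ends at -0.0021 on the deposited scale, and the Alb interval narrows from -0.54 to 0.65 on the deposited scale to -0.28 to 0.36 after quantile normalization.

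In Alb, Ttr and Azgp1, the arrays numbered 1 read highest in each of the 4 groups. Alb was lower by a mean log2 difference of -0.57 on the arrays numbered 3 than on those numbered 1, over the 4 groups, and by -0.34 on those numbered 2. For Ttr these differences were -0.47 and -0.33, and for Azgp1 -0.46 and -0.39. They were smaller in the other carriers, where the difference between arrays numbered 3 and 1 was -0.24 for Rbp4, -0.22 for Ahsg, -0.17 for Kng1, -0.13 for Hrg, -0.12 for Afm and -0.01 for Fetub. In limma's F test of the replicate number as a factor, with no order assumed, the adjusted p was 0.766 for Alb and 0.803 for Ttr and for Azgp1. No carrier probe set was called, nor was any other on the array (0.0% of all probe sets). At an unadjusted p under 0.05, 3 of 13 carrier probe sets passed, those of Alb, Ttr (1451580_a_at) and Azgp1, beside 5.99% of all probe sets. Because the pattern of Alb was known when the members were chosen, this count is a description and no independent evidence for the pattern.

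By simple counts, 4 of 13 carrier probe sets (Alb, the Ttr probe sets 1451580_a_at and 1455913_x_at, and Azgp1) were highest on the array numbered 1 in all 4 groups, against 2.17% of all probe sets. The share depended on brightness. It was 27 of the 50 brightest probe sets, 32 of the 100 brightest and 38 of the 200 brightest, and among the 100 brightest that belong to no carrier it was 28. None of the 100 brightest was highest on the arrays numbered 2 in all groups, and none on those numbered 3. The carriers thus had a pattern that other bright probe sets had too, and nothing particular to carriers was tested.

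The same arrays stood out in wider measures. The 100 brightest probe sets, 8 of them of carriers, held 17.3% to 22.2% of the summed signal, a share that was highest on the array numbered 1 and lowest on that numbered 3 in each of the 4 groups. The 3′ probe set for the bacteriophage P1 cre transcript, a control added to the hybridisation mix and not made by the liver, ran from 11140 to 22297.7 and was highest on the array numbered 1 in every group. The M on array numbered 1 was the highest of all 12 for Alb (28641.5) and for cre (22297.7). Of 18 hybridisation-control probe sets, 8 were highest on the arrays numbered 1, among them 3 of the 4 for cre. The sources give no scan day, extraction day or other batch, and what the replicate numbers stand for was not tested.

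**Figure D3:**
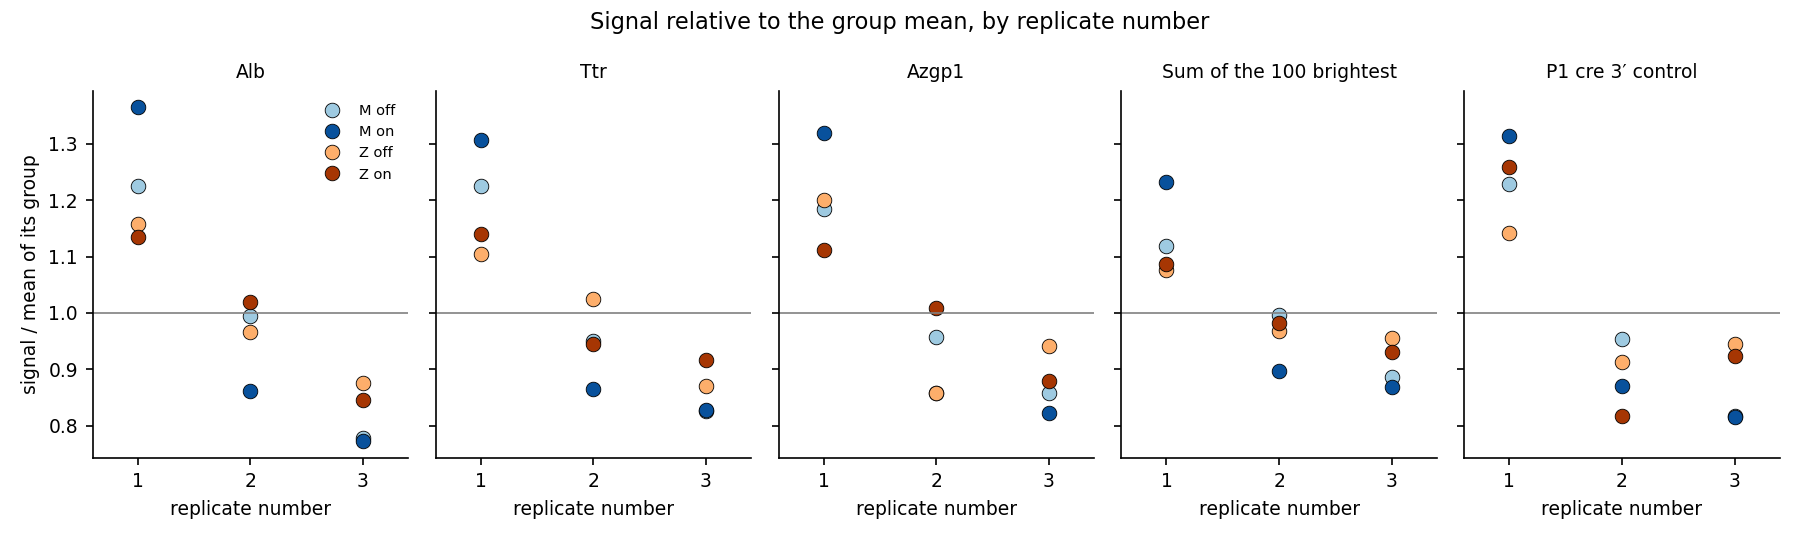
Signal divided by the mean of its group (vertical axis, no unit) for Alb, Ttr, Azgp1, the sum of the 100 brightest probe sets (8 of them of carriers) and the P1 cre 3′ control, by replicate number, 1 point per array. All 4 arrays numbered 1 lie above their group mean in each panel.

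After quantile normalization, which gives every array the same distribution of signals, the difference between arrays numbered 3 and 1 became -0.11 for Alb, -0.05 for Ttr and -0.21 for Azgp1. Of the 13 carrier probe sets 1, that of Azgp1, was still highest on the array numbered 1 in all groups. This was also the only 1 of the 100 brightest on the array. Among the 100 brightest that belong to no carrier, there were 0. The pooled SD within groups on the log2 scale went from 0.31 to 0.08 for Alb, from 0.26 to 0.07 for Ttr and from 0.27 to 0.13 for Azgp1, and from 0.17 to 0.09 for Ahsg. For Fetub it went from 0.09 to 0.12. The Z on minus Z off difference of Alb was then 0.04 (95% interval -0.28 to 0.36, limma adjusted p = 0.976), that of Ttr -0.05 and that of Fetub -0.36 (limma adjusted p = 0.748), so no carrier passed the threshold on this scale either. Because the carriers are among the signals that set the top of each distribution, this step also limits how far such bright genes can differ between arrays.

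**Figure D4:**
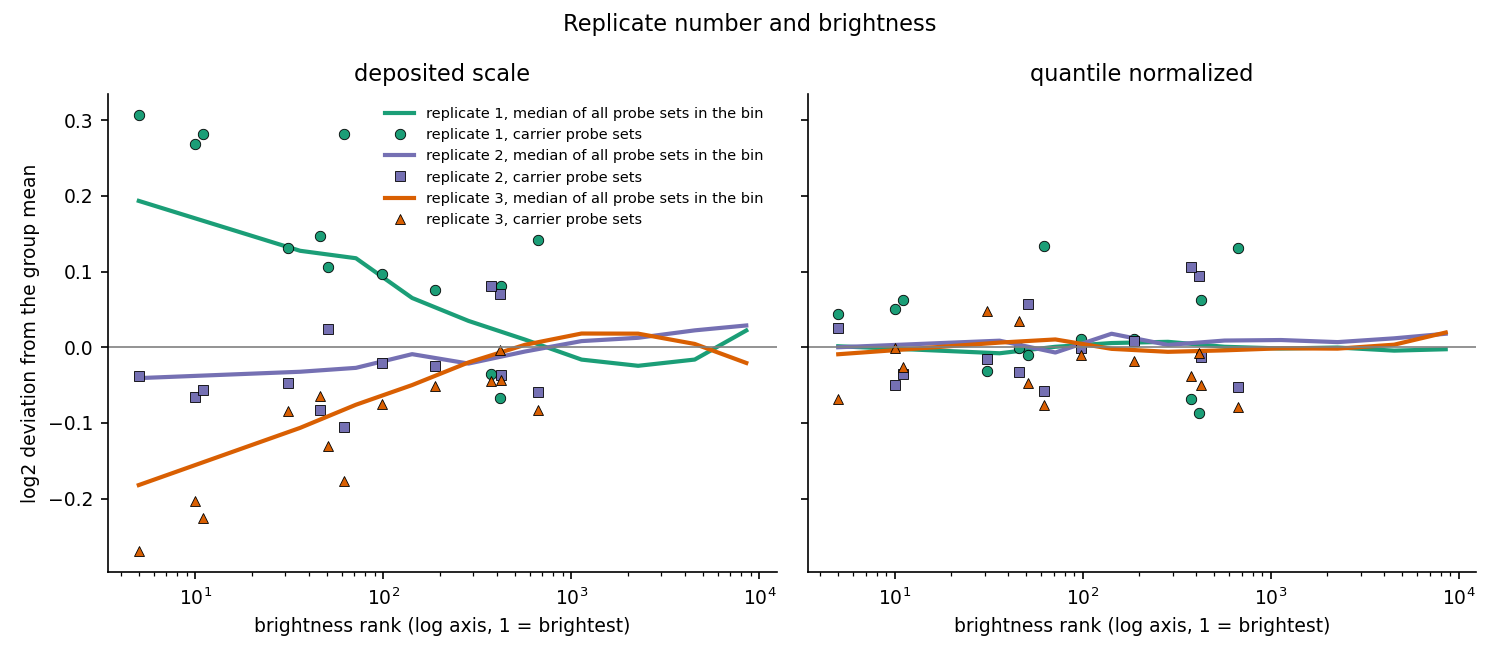
Mean log2 deviation from the group mean on the arrays numbered 1, 2 and 3, over the 4 groups, against brightness rank (log axis, 1 = brightest), for the 13 carrier probe sets (points) and as the median of all probe sets in bins of rank (lines). On the deposited scale (left) the lines part towards the brightest ranks, where the Alb point of the arrays numbered 1 is at 0.31, and after quantile normalization (right) it is at 0.04.

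Genes most like Alb over the 12 arrays were bright secreted proteins. The highest Pearson correlations with Alb on the log2 scale, among 10391 probe sets above the median level that have 1 symbol, were 0.96 for Apoa2, 0.95 for Ttr and for Apoe, 0.94 for Serpina1b, a mouse alpha1-antitrypsin gene, and 0.94 for Apoa1. All of these were highest on the array numbered 1 in each group, and after quantile normalization the values were 0.84, 0.51, -0.23, 0.35 and -0.24 in that order. Between the carriers themselves, the median correlation over 36 pairs was 0.47 on the deposited scale and 0.01 after quantile normalization. These correlations are descriptions over arrays that share their groups, scaling and brightness range.

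Other secreted plasma proteins were read beside the carriers. Of 38 measured genes out of 42, 14 had a higher and 24 a lower mean in Z on than in Z off, with a median log2 difference of -0.06, and none was called in limma. The smallest unadjusted p belonged to Itih1, a hyaluronan-binding inter-alpha-inhibitor chain, which read 1344.6 to 1495.3 in Z on and 2048 to 2297.1 in Z off (log2 difference -0.62, limma adjusted p = 0.668). Igfals, which stabilises insulin-like growth factors in plasma, differed by -0.72 (limma adjusted p = 0.671), Lcat, the cholesterol-esterifying enzyme of plasma, by -0.34 (limma adjusted p = 0.804) and Apoa4, an apolipoprotein, by 0.63 (limma adjusted p = 0.847).

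Positive acute phase genes, which classically move opposite to albumin and transthyretin, had a higher mean in Z on than in Z off for 16 of 18, with a median of 0.41 on the log2 scale, and none was called in limma. Over all genes, 47.2% had a higher mean in this comparison. Several of the higher means were not shared by all Z on arrays. Saa1 ran from 441.9 to 6737.2 in Z on and from 587.7 to 1589.5 in Z off. Saa2 ran from 91.5 to 4508.4 in Z on and from 186.6 to 226.9 in Z off. Lbp ran from 519.9 to 1133.4 in Z on and from 611 to 661.7 in Z off, and Lcn2 from 4.1 to 761.2 and from 9.2 to 36.9. In M on against M off, 8 of 18 had a higher mean, with a median of -0.07. The chemokine Cxcl1 read 378.6 to 988.5 in Z on and 51 to 62.8 in Z off (log2 difference 3.18, limma adjusted p = 0.157). It also lay apart upward in M, at 314.3 to 598.5 in M on and 80.4 to 226.6 in M off (log2 difference 1.90, limma adjusted p = 0.587). On the log2 scale Saa3, a serum amyloid A protein, differed by 1.12 (limma adjusted p = 0.627). Its signals were 129.9 to 184.6 in Z on and 67.8 to 90 in Z off. Apcs, serum amyloid P, differed by 1.16 (limma adjusted p = 0.706). Its signals were 2066.2 to 5813.8 in Z on and 1319 to 1818.5 in Z off, but 1674.3 to 3849.8 in M off. Orm2, an orosomucoid, differed by 1.13 (limma adjusted p = 0.831). Orm2 was dim and overlapped, at 24.2 to 87.3 in Z on and 7.6 to 38.6 in Z off. The brighter Orm1 differed by -0.03. The list's summed signal ran from 26277.9 to 54769 in Z on and from 30230.2 to 32729.2 in Z off, so the groups overlapped. Alb and Ttr differed by 0.06 and -0.05 between the same groups. Some other measures of the Z on arrays were read beside their Fetub signals. The 3′ control probe set for 18S ribosomal RNA read 914.2 to 1491.7 in Z on, above all other 9 arrays, which reached at most 767.5. Stellate markers summed to 1214.3 to 1537.3 in Z on and 1913.4 to 2202.2 in Z off, and they also lay lower in M on (1287.1 to 1872.9) than in M off (2054.9 to 2290.2), where Fetub differed by -0.06. The β-actin 3′ to 5′ ratio, a sign of RNA length, ran from 2.44 to 5.16 in Z on and from 2.18 to 2.53 in Z off, and its range in M off (2.72 to 3.89) and M on (3.09 to 4.38) overlapped with that of Z on. The part of these in the Fetub signals was not tested.

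Transcription factors known from albumin and other liver promoters gave 11 higher and 8 lower means in Z on against Z off among 19 measured genes out of 21, with none called in limma. The PAR bZIP factor Dbp, named for its binding to the D site of the albumin promoter, read 23.8 to 107.1 in Z off, 80.1 to 1385.3 in Z on and 838.7 to 1103.5 in M off. Its log2 difference between Z on and Z off was 3.39 (limma adjusted p = 0.671), while Alb differed by 0.06 and overlapped in the same arrays. Its relatives Tef and Hlf differed by 1.21 and 0.37, and the opposing factor Nfil3 by -0.84. Nfil3 also differed by -0.99 between M on and M off. Between Z off and M off, Tef differed by -1.41, Hlf by -0.15 and Nfil3 by 1.43. Tef in Z on, at 291.7 to 895, overlapped with its 574.5 to 709.7 in M off. Hnf4a, a main regulator of hepatocyte genes, read 1710.7 to 2150.4 in Z on and 1861.7 to 2015.2 in Z off.

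Receptors, enzymes and relatives that handle the carriers or their cargo gave 7 higher and 11 lower means in Z on against Z off among 18 measured genes out of 20, with none called in limma. Dio1, the deiodinase that turns the thyroxine carried by transthyretin into active hormone, read 989 to 1370.3 in Z on and 221.2 to 530.1 in Z off, without overlap. Its log2 difference was 1.71 (limma adjusted p = 0.533). The M groups, at 582.5 to 1045.4 in M off and 493.2 to 1016 in M on, overlapped with Z on. All Z off arrays lay below all M off arrays for Dio1 (log2 difference -1.23, limma adjusted p = 0.487). Stra6, the receptor for retinol-bound RBP4, differed by -1.57, the fetal albumin relative Afp by -1.13 and the bradykinin receptor Bdkrb2 by 0.98 on the log2 scale, with signals of 3.2 to 28.1 for Stra6, 7.6 to 32.3 for Afp and 2.5 to 8.6 for Bdkrb2 in these groups, where log2 differences are uncertain.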

How the data were processed

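Liver RNA was prepared with TRIZOL and an RNeasy column and hybridised as biotin-labelled target to 1-colour mouse arrays, per the labels. The deposited values are intensities, 1 linear signal per probe set and array. The submitters' processing notes name RMA, but the values are linear and differ in distribution between arrays, and no source used here names the software that made them. Array medians lay between 38.7 and 47.0, the highest signal was 37251.7, and detection calls were not used here.

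Of 22690 probe sets, 64 array controls were left out. Of the 22626 tested, 20380 had 1 gene symbol in the platform annotation, 691 several and 1555 none, and 0 symbols changed on lookup in RefSeq (GRCm38.p6). Signals were set to log2, with 1 value of 0 raised to 0.1, and no filter or further normalization was applied. limma 3.58.1 (R 4.3.3) fitted a mean per group over all 12 arrays. Adjusted p-values are Benjamini-Hochberg over all 22626 probe sets, two-sided, with a call at an adjusted p under 0.05. The replicate number was tested as a factor with group in the model. A group counts as apart when none of its arrays overlaps with the other group. The fit was tested on simulated data.

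The members and lists were chosen with earlier results of these data known, the replicate-number pattern of Alb among them. Named were all members, up to 4 genes of each list with the smallest unadjusted p in Z on against Z off (other cell types by summed markers), and the 5 genes most correlated with Alb. Hnf4a, Orm1, Saa1, Saa2, Lbp, Lcn2 and the single erythroid and stellate markers were added after their values were seen. Motifs were searched on both strands of the 250 bases before each start in RefSeq, which held no window for Ttr or Kng1, and the Ttr sequence is not reported here. Same-numbered arrays were checked for pairing by the correlation of their deviations from the group mean over the brighter 11313 probe sets. It lay between -0.08 and 0.16 and exceeded 0.1 in 3 of 12 pairs, so the numbers were not taken to pair mice. Alternatives were quantile normalization, median centring, an intensity trend with robust variances, probe sets above the median only, only the groups compared, a replicate block, 16 added before log2, 1 probe set per gene and leaving out each array. The number of arrays limits the precision.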

Additional observations from a re-analysis of the deposited data

How the results depend on the processing

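No carrier probe set was called in any comparison or for the replicate number under any alternative run. Of 891 recomputed carrier differences, 71 changed sign, all of them at most 0.19 in size on the reported scale, 3 moved by over 1 SD, and the lowest limma adjusted p was 0.373. Fetub in Z on minus Z off stayed between -0.41 and -0.29, with limma adjusted p between 0.474 and 0.982. Counts over all probe sets, from limma, were 3 for Z on against Z off, 0 for M on against M off, 0 for the difference of responses, 2 for Z on against M on and 16 for Z off against M off. In that order they were 8, 8, 2, 22 and 51 with an intensity trend and robust variances, and 1, 2, 1, 20 and 33 among probe sets above the median. Median centring gave 1, 5 and 1 for the first 3. Adding 16 gave 1, 3, 1 and 10 for the first 4. Quantile normalization gave 2 for M on against M off and 9 for Z on against M on, and 1 probe set per gene gave 1 for M on against M off and 2 for the difference of responses. With only the groups compared, Z on against Z off, Z on against M on and Z off against M off each gave 0. With the replicate number as a block, the counts were 1, 0, 0, 0 and 6, beside a check that did not show the numbers to pair mice. Leaving out 1 array gave 1 to 5, 0 to 2, 0 to 2, 0 to 5 and 1 to 11, and 0 throughout for the replicate number. The causes of these changes were not tested. With groups of 3, no array was tested as an outlier, and log2 differences of dim probe sets are the least certain.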
